A study of Mus musculus with 12 samples.

Results

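The genes described here are the 2 corticosteroid receptors, the 2 enzymes that interconvert active and inactive glucocorticoid, and 4 genes that the glucocorticoid receptor is known to induce, as measured in the adult mouse adrenal gland. The receptors are Nr3c1 (glucocorticoid receptor) and Nr3c2 (mineralocorticoid receptor), the enzymes are Hsd11b1 and Hsd11b2, and the induced genes are Fkbp5, Tsc22d3, Sgk1 and Zbtb16. They were chosen by name, and all 8 had a probe set that the platform table assigns to that gene alone, 1 for each gene, among 16244 genes with such a probe set. All 8 were bright enough to be tested, together with 15900 genes in all.

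Adrenal RNA came from male C57Bl/6J mice killed at 21 weeks of age and was hybridised to Affymetrix Mouse Gene 1.0 ST arrays. Control mice (CON) received neither agent. ASP mice were exposed to the sweetener aspartame from in utero onwards, at 46 mg/kg body weight. CGP mice received the competitive NMDA receptor antagonist CGP 39551 at 5 mg/kg during development, ending at postnatal day 28, and ASP+CGP mice received both. The RNA of the animals of each group was combined into 1 pool, and 3 arrays were run for each of the 4 pools. The spread between arrays, and every p-value derived from it, is therefore technical and does not cover differences between mice or between pools. The same holds where the arrays of pools do not overlap, and the share of all tested genes without overlap was not counted. Values are log2 signals, so that a difference of 1 is a doubling. The signal of one gene's probe set cannot be set against that of another, because probes bind with different strength.

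Corticosterone, the main glucocorticoid of the mouse, is made in the adrenal cortex and binds cytoplasmic receptors held in a complex of heat shock proteins and co-chaperones. The bound receptor moves to the nucleus and attaches to glucocorticoid response elements, which are paired copies of a short half-site, and raises or lowers transcription of nearby genes. Some of the induced genes feed back on the pathway: FKBP5 lowers the affinity of the receptor for its ligand. Cells also set their own exposure to the hormone, since 11β-hydroxysteroid dehydrogenase type 1 regenerates corticosterone from its inactive keto form and type 2 inactivates it.

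The pools differed in cell type markers and in the spread of their signals. In ASP, markers of brain cells stood far above CON: 10 of 10 neuronal, 9 of 9 oligodendrocyte and 9 of 10 astrocyte markers were called higher, and the summed linear signal of the neuronal markers was 4.11 to 4.30 times the CON mean. Hepatocyte markers were called lower in ASP (9 of 12, summed signal 0.623 to 0.634 of CON) and in ASP+CGP (11 of 12, 0.462 to 0.492), and higher in CGP (9 of 12, 1.43 to 1.48). Adrenal cortex markers were present on all arrays, with summed signals between 0.857 and 1.01 of the CON mean. They were lowest in ASP (0.857 to 0.885, 3 of 10 called lower). In ASP, 5 of 8 endothelial (0.720 to 0.753) and 3 of 8 macrophage markers (0.756 to 0.783) were also called lower. Of 9 chromaffin markers (0.788 to 0.803), 2 were called lower and 1 higher in ASP. The ASP+CGP arrays had a narrower spread of signals (interquartile range 2.20 to 2.29, against 2.58 to 2.62 in CON), and the difference of ASP+CGP from CON ran with signal level, from a median of 0.25 over genes with a CON signal of 6 to 7 to -0.34 over genes at 9 to 10. The main differences below are therefore given beside the median of all tested genes of the same CON level, within a band 1 log2 unit wide, and some also beside their value under cyclic loess scaling between arrays, an alternative to the deposited scaling. What part the other cell types have in the members' values was not tested, and in tissue RNA fewer cells of a type cannot be told apart from less RNA per cell.

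Nr3c1 (probe set 10458569) encodes the glucocorticoid receptor, to which corticosterone binds. Its log2 signals were 7.91, 7.95 and 7.96 in CON, 8.05, 8.15 and 8.18 in CGP, 8.09, 8.17 and 8.36 in ASP, and 7.68, 7.69 and 7.69 in ASP+CGP. The 3 ASP+CGP arrays were the lowest and did not overlap with any other pool, CON came next without overlap, and CGP and ASP overlapped at the top. Nr3c1 fell in ASP+CGP compared with ASP by 0.52 ± 0.07 (SE, 3 arrays against 3), a fold of 0.697 (limma, adjusted p = 1.337e-05). Among 3286 genes of the same level the median of this contrast was 0.04, and 13.8% of them lay lower than Nr3c1. Compared with CON the values were 0.27 ± 0.07 for ASP, 0.19 ± 0.07 for CGP and -0.25 ± 0.07 for ASP+CGP (limma, adjusted p = 0.003477, 0.2451 and 0.003883), all under the 1.4-fold minimum. The medians at its level were -0.08, 0.00 and -0.06. Under cyclic loess the value was 0.41 for ASP and -0.12 for ASP+CGP (limma, adjusted p = 0.000111 and 0.1199), both still under the 1.4-fold minimum.

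Nr3c2 (probe set 10572949) encodes the mineralocorticoid receptor, which binds aldosterone and, with high affinity, corticosterone. Its signals were 7.25, 7.46 and 7.47 in CON, 7.55, 7.56 and 7.57 in CGP, 7.44, 7.45 and 7.60 in ASP, and 7.12, 7.15 and 7.17 in ASP+CGP. The ASP+CGP arrays were again lowest without overlap, while CON overlapped with ASP, and ASP with CGP. ASP+CGP differed from CON by -0.25 ± 0.07, from ASP by -0.35 ± 0.07 and from CGP by -0.41 ± 0.07 (limma, adjusted p = 0.005162, 0.0004954 and 0.000115), each short of 1.4-fold. The medians at its level were -0.06, 0.04 and -0.06. ASP differed from CON by 0.11, with a 95% interval of -0.04 to 0.25, and under cyclic loess by 0.20 (limma, adjusted p = 0.02685).

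**Figure D1:**
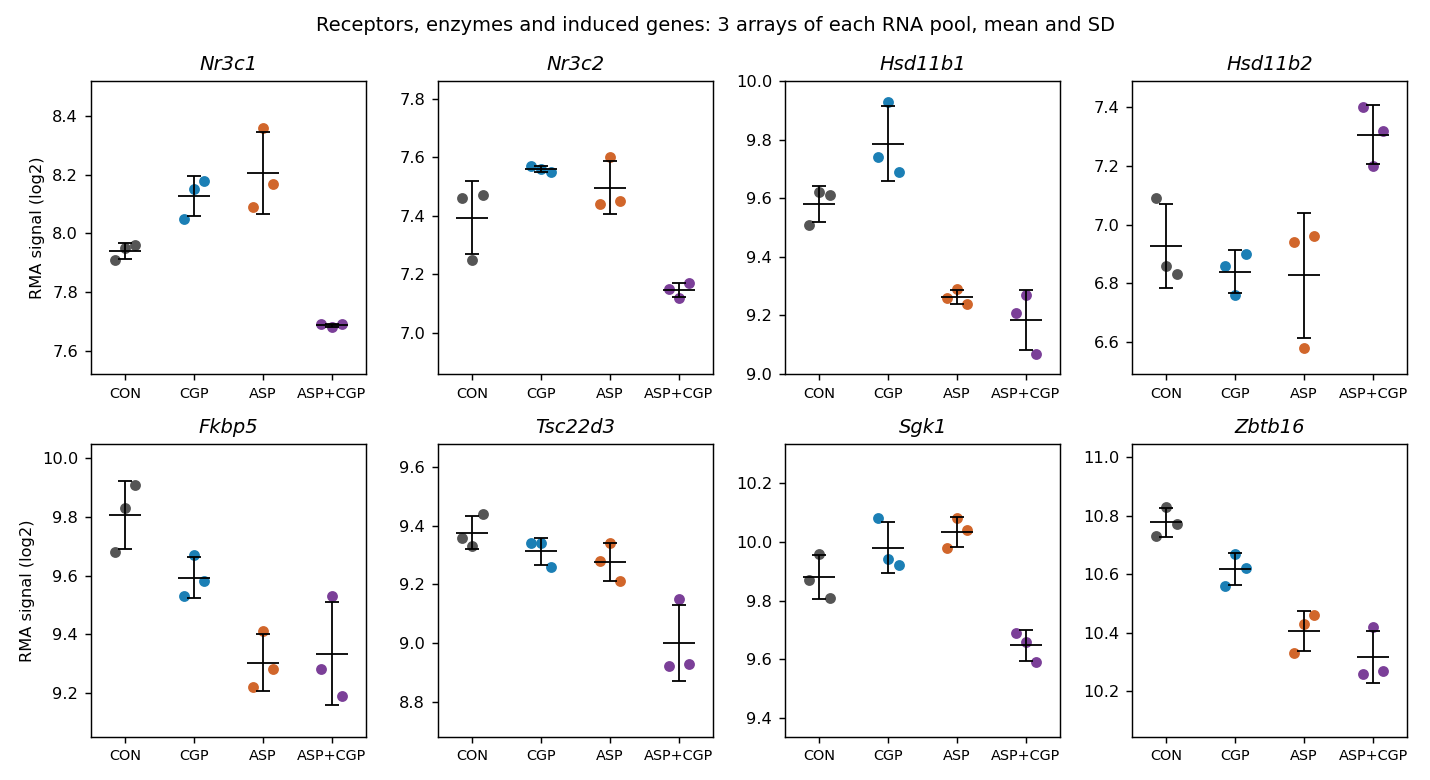
RMA signal (log2, vertical axis, 1 unit tall in every panel but with its own range) of the 8 genes on the 3 arrays of each RNA pool; points are arrays, bars the mean and SD. The ASP+CGP arrays are lowest without overlap for Nr3c1, Nr3c2, Tsc22d3 and Sgk1 and highest without overlap for Hsd11b2. Overlap was not counted over all tested genes, of which 75% had an unadjusted p under 0.05 by limma in ASP+CGP against CON alone. The median of that comparison over all genes was 0.25 at a CON signal of 6 to 7 and -0.34 at 9 to 10. Among genes of the same level, 23.6% lay lower than Nr3c1, 24.5% than Nr3c2, 41.7% than Tsc22d3 and 75.7% than Sgk1, and 30.4% lay higher than Hsd11b2.

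Hsd11b1 (probe set 10361234), whose enzyme regenerates active corticosterone inside cells, is abundant in liver. Its signals were 9.51, 9.61 and 9.62 in CON, 9.69, 9.74 and 9.93 in CGP, 9.24, 9.26 and 9.29 in ASP, and 9.07, 9.21 and 9.27 in ASP+CGP. The CGP arrays were highest and did not overlap with CON, which lay above both aspartame pools, and those overlapped with each other. Hsd11b1 fell in ASP+CGP compared with CGP by 0.61 ± 0.07, a fold of 0.656 (limma, adjusted p = 9.95e-06), where the median of 2774 genes at its level was -0.35 and 7.17% of them lay lower. Cyclic loess ended this call, with a difference of -0.27. Compared with CON, ASP differed by -0.32 ± 0.07 and ASP+CGP by -0.40 ± 0.07 (limma, adjusted p = 0.001555 and 0.0002606), beside medians of -0.19 and -0.34 at its level. Under cyclic loess these differences were -0.15 and -0.08 (limma, adjusted p = 0.04313 and 0.2538). CGP differed from CON by 0.21 ± 0.07 (limma, adjusted p = 0.242). The pools in which the mean of Hsd11b1 was above or below CON were those in which hepatocyte markers were called higher or lower, and the part of these cells in its signal was not tested.

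Hsd11b2 (probe set 10574780) encodes the enzyme that inactivates corticosterone and shields the mineralocorticoid receptor in kidney tubule and other salt-handling epithelia. Its signals were 6.83, 6.86 and 7.09 in CON, 6.76, 6.86 and 6.90 in CGP, 6.58, 6.94 and 6.96 in ASP, and 7.20, 7.32 and 7.40 in ASP+CGP. ASP+CGP stood above the other 3 pools, which overlapped with one another. ASP+CGP was higher than CON by 0.38 ± 0.10, than ASP by 0.48 ± 0.10 and than CGP by 0.47 ± 0.10 (limma, adjusted p = 0.003757, 0.000872 and 0.0007841), corresponding to 1.30-, 1.39- and 1.38-fold, under the minimum. Genes at this low level had medians of 0.25, 0.24 and 0.27 in the same contrasts. Kidney tubule markers were called higher in ASP+CGP in 2 of 5 tested (1 under cyclic loess), where 6.09% of all tested genes were called higher. Their summed linear signal was low, 462 to 507 in CON, and 1.37 to 1.57 times CON in ASP+CGP. The part of tubule cells in Hsd11b2 was not tested.

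Fkbp5 (probe set 10449452) encodes a co-chaperone of the receptor and is among the most sensitive of its induced genes. Its signals were 9.68, 9.83 and 9.91 in CON, 9.53, 9.58 and 9.67 in CGP, 9.22, 9.28 and 9.41 in ASP, and 9.19, 9.28 and 9.53 in ASP+CGP. CON was highest, without overlap, and both aspartame pools were lowest and overlapped, although 1 ASP+CGP array reached the CGP range. Fkbp5 fell in ASP compared with CON by 0.50 ± 0.09, a fold of 0.707 (limma, adjusted p = 0.0002376). The median of genes at its level was -0.19, with quartiles of -0.36 and -0.01, and 11.9% of them lay lower. ASP+CGP differed from CON by -0.47 ± 0.09 (limma, adjusted p = 0.0003671), just short of 1.4-fold, beside a median of -0.34 at its level, and from ASP by 0.03 (95% interval -0.16 to 0.22). Under cyclic loess the former was -0.15 (limma, adjusted p = 0.09204). The Fkbp5 call for ASP ended with CON replicate 3 or ASP replicate 1 left out, and with cyclic loess, where the difference was -0.33.

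Zbtb16 (probe set 10593225) encodes a zinc finger transcription factor known as PLZF. Its signals were 10.73, 10.77 and 10.83 in CON, 10.56, 10.62 and 10.67 in CGP, 10.33, 10.43 and 10.46 in ASP, and 10.26, 10.27 and 10.42 in ASP+CGP. The 3 CON arrays were highest, the CGP arrays lay between, and ASP and ASP+CGP overlapped at the bottom. The differences from CON were -0.37 ± 0.06 in ASP and -0.46 ± 0.06 in ASP+CGP (limma, adjusted p = 0.0001448 and 3.831e-05), a fold of 0.773 and 0.728. Genes at its level had medians of -0.19 and -0.33, and under cyclic loess the differences of Zbtb16 were -0.22 and -0.17 (limma, adjusted p = 0.002339 and 0.01159).

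Tsc22d3 (probe set 10606989) encodes GILZ, a leucine zipper protein that mediates anti-inflammatory actions of glucocorticoids. Its signals were 9.33, 9.36 and 9.44 in CON, 9.26, 9.34 and 9.34 in CGP, 9.21, 9.28 and 9.34 in ASP, and 8.92, 8.93 and 9.15 in ASP+CGP. CON, CGP and ASP formed an overlapping series, and ASP+CGP lay below them. ASP+CGP differed from CON by -0.37 ± 0.07 (limma, adjusted p = 0.0003129), against a median of -0.34 at its level, where 41.7% of genes lay lower still, and under cyclic loess by -0.06 (limma, adjusted p = 0.3726). In ASP the difference from CON was -0.10 (95% interval -0.25 to 0.05), and it turned to 0.08 under cyclic loess scaling.

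Sgk1 (probe set 10362073) encodes a kinase that promotes sodium uptake by restraining the ubiquitin ligase NEDD4L, and both receptors induce it. Its signals were 9.81, 9.87 and 9.96 in CON, 9.92, 9.94 and 10.08 in CGP, 9.98, 10.04 and 10.08 in ASP, and 9.59, 9.66 and 9.69 in ASP+CGP. ASP+CGP lay below the other pools, and among those ASP was above CON without overlap while CGP overlapped with both. ASP+CGP differed from ASP by -0.39 ± 0.06 and from CON by -0.23 ± 0.06 (limma, adjusted p = 0.0001311 and 0.00469), and the latter turned to 0.08 under cyclic loess scaling. The medians at its level were -0.14 and -0.34, and in the comparison with CON 75.7% of genes lay lower than Sgk1. ASP differed from CON by 0.15 ± 0.06 (limma, adjusted p = 0.05513), whereas genes at its level had a median of -0.19 and 13.1% lay higher than Sgk1.

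**Figure D2:**
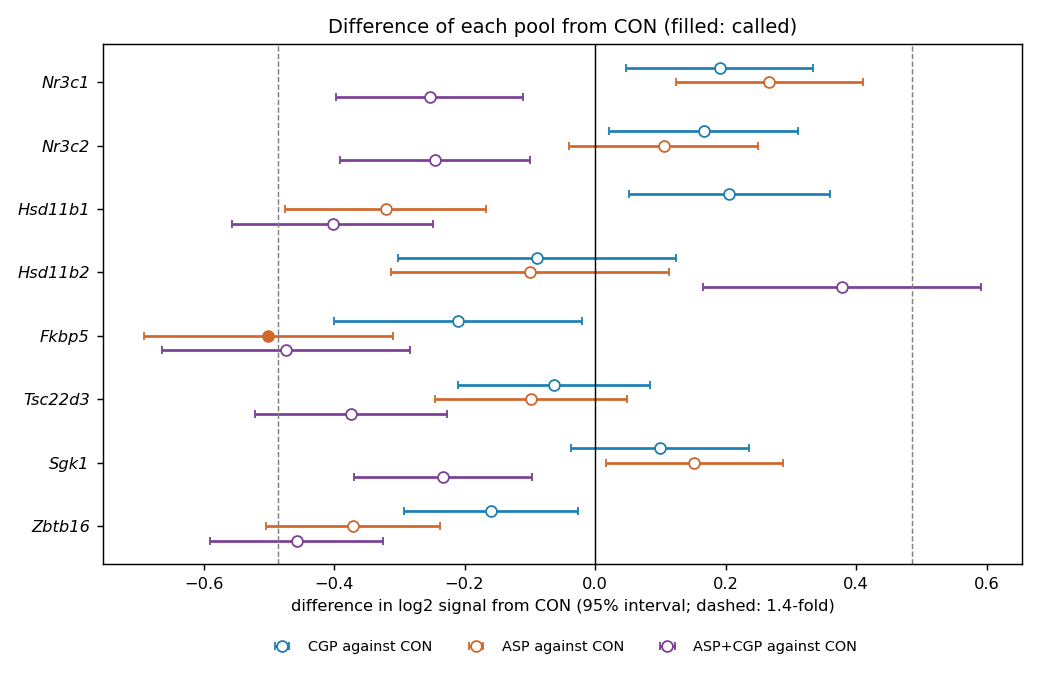
Difference in log2 signal from CON (horizontal axis) of each pool for the 8 genes, with 95% intervals from limma over 3 arrays a pool and dashed lines at 1.4-fold; filled points passed both thresholds. Fkbp5 in ASP, at -0.50, is the filled point.

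The half-site TGTTCT of the glucocorticoid response element, on either strand, and the pair formed by its reverse complement, 3 bases of any kind and TGTTCT were looked for in the 250 bases before each annotated start site, from the RefSeq promoter table of build GRCm38.p6. The table held 12 windows for 5 of the 8 genes, and none for Nr3c1, Hsd11b2 and Zbtb16. Half-sites lay in 4 windows, 3 of 6 for Sgk1 and 1 of 3 for Tsc22d3, against 16.1% of all 32851 windows. The complete pair lay in 3 of all windows (0.00913%), and 1 of them belongs to Sgk1, at chr10:21993640-21993889 on the plus strand, beginning 189 bases before the start site. That window and the Tsc22d3 window with a half-site, chrX:140600523-140600772 on the minus strand, are printed 5′ to 3′ with the half-sites in capitals, because these are the induced genes with a half-site. A match describes the letters, not binding.
Sgk1: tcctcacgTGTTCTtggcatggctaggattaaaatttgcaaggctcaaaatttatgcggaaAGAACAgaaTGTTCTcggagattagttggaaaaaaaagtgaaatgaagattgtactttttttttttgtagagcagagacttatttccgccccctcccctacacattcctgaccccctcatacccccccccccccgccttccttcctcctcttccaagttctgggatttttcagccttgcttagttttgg
Tsc22d3: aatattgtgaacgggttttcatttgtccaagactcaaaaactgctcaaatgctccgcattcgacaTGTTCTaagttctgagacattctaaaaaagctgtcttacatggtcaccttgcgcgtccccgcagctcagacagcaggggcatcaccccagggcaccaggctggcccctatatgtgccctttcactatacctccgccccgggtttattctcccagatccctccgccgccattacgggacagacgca

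Counted over the 8 genes, the ASP pool gave 1 call against CON, Fkbp5 lower, where 8.13% of all tested genes were called lower and 9.81% higher. With no fold minimum, 3 of the 8 were lower (Hsd11b1, Fkbp5 and Zbtb16) and 1 higher (Nr3c1), beside 37.7% and 17.6% of all genes. The median difference of the 8 genes was -0.10, the same as that of all tested genes to 2 decimals. CGP against CON gave 0 calls by limma, with all-gene backgrounds of 1.62% higher and 0.0189% lower. Before adjustment, 5 of the 8 had p under 0.05, as did 9.75% of all tested genes, and the lowest adjusted p was 0.242.

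In ASP+CGP against CON, 0 of the 8 were called by limma (8 of 8 had an unadjusted p under 0.05, as did 75% of all tested genes), with 6.09% of all genes called higher and 8.32% lower. With no fold minimum 7 were lower and 1, Hsd11b2, higher, where the same rule took 50.4% of all genes as lower and 22.3% as higher. The median of the 8 was -0.31 and that of all tested genes -0.17. Compared with ASP, ASP+CGP gave 1 call, Nr3c1 lower (background 13.3% lower and 6.55% higher), and 4 were lower and 1 higher with no fold minimum (background 33.1% and 30%). Against CGP, 1 member was called lower, Hsd11b1 (background 11% lower and 8.57% higher), and 7 were lower and 1 higher with no fold minimum (background 51.8% and 23.8%). These counts are read against scaling too: cyclic loess moved the median of all genes in ASP against CON from -0.0986 to 0.0128 and in ASP+CGP against CON from -0.166 to -0.0127, and the share of higher genes among all calls from 54.7% to 80.1% and from 42.3% to 57.6%.

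**Figure D3:**
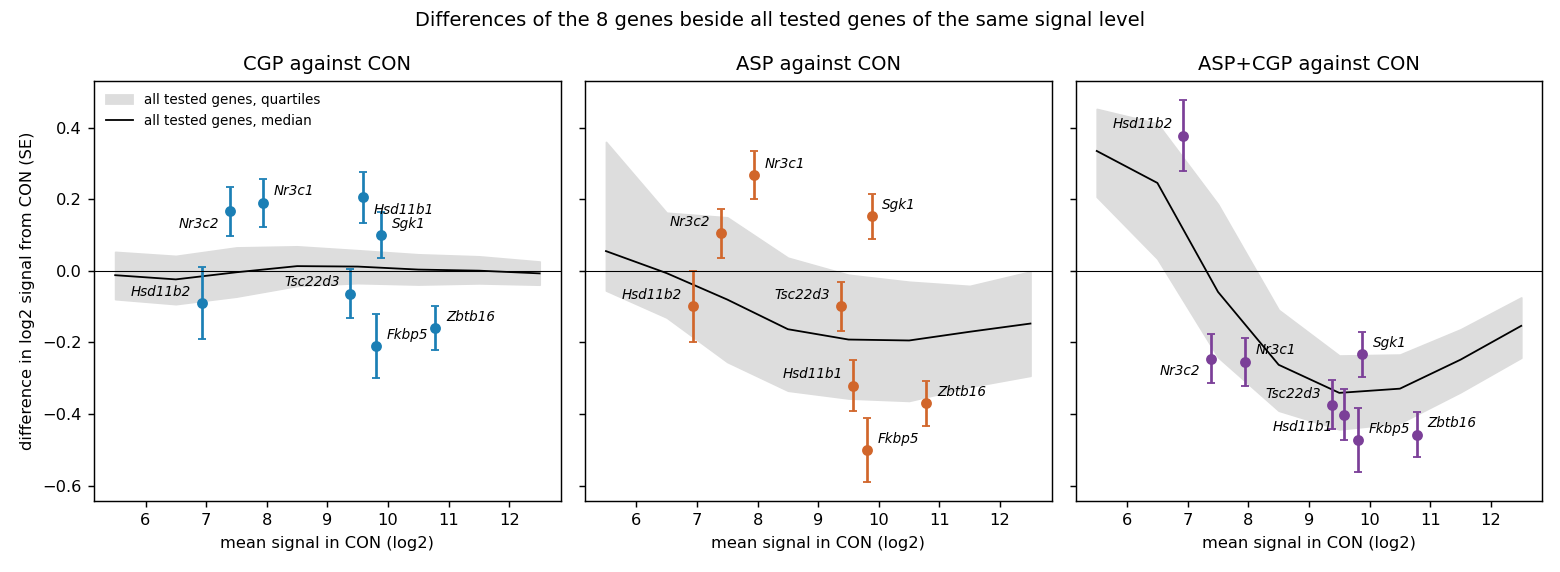
Difference in log2 signal from CON (vertical axis, SE) against mean CON signal (log2, horizontal axis) for the 8 genes in each treated pool; the line and band are the median and quartiles of all tested genes in bands of 1 log2 unit. In ASP, Nr3c1 and Sgk1 lie above the band and Fkbp5 farthest below it, and in ASP+CGP all 8 lie on the same side of 0 as the line at their level.

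The 2 by 2 design also allows the aspartame difference, between pools with and without aspartame, to be compared without and with CGP 39551. The comparison is the interaction, (ASP+CGP minus CGP) minus (ASP minus CON). With 1 pool a group, an effect of aspartame cannot be told apart from other differences between the pools. For Nr3c1 the aspartame difference was 0.27 without the antagonist and -0.44 with it. Its interaction was -0.71 ± 0.09 (limma, adjusted p = 2.901e-05), beside a median of 0.02 at its level. Nr3c2 went from 0.11 to -0.41, an interaction of -0.52 ± 0.10 (limma, adjusted p = 0.0005476). Sgk1 went from 0.15 to -0.33, an interaction of -0.49 ± 0.09 (limma, adjusted p = 0.0005401) whose size, 1.4001-fold, lay at the minimum, beside a median of -0.17 at its level. The 0.15 lay beside a median of -0.19 at that level and the -0.33 beside one of -0.35, where 54.7% of genes lay lower. Hsd11b2 went the other way, from -0.10 to 0.47, an interaction of 0.57 ± 0.14 (limma, adjusted p = 0.004243), where the median at its level was 0.25. Thus 3 of the 8 were called lower and 1 higher, against 15.5% and 9.02% of all tested genes.

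The other 4 genes were not called in the interaction. Fkbp5 had a value of 0.24 (95% interval -0.03 to 0.51) and Zbtb16 one of 0.07 (-0.12 to 0.26). Their aspartame difference with the antagonist, below 0 for both as deposited, was 0.07 and -0.0093 under cyclic loess. Hsd11b1 had -0.29 (-0.50 to -0.07) and Tsc22d3 -0.21 (-0.42 to -0.0042). Under cyclic loess the interactions were 0.40 for Fkbp5 and 0.21 for Zbtb16 (limma, adjusted p = 0.005332 and 0.02564). Those of Hsd11b1 and Tsc22d3 were -0.13 and -0.06 (limma, adjusted p = 0.1957 and 0.5253), and none of these 4 reached 1.4-fold. Left-out arrays decided some of the interaction calls: without CON replicate 1 the calls of Hsd11b2 and Sgk1 ended, and without ASP replicate 2 that of Nr3c1 alone stayed. With each of the 12 arrays left out in turn, Nr3c1 was called 12 times, Nr3c2 and Hsd11b2 10 times each, and Sgk1 6 times. Cyclic loess ended those of Hsd11b2 (0.38) and Sgk1 (-0.33) and kept those of Nr3c1 (-0.72) and Nr3c2 (-0.64). Median centring ended those of Nr3c2 and Sgk1 and kept those of Nr3c1 and Hsd11b2. The call of Nr3c1 in ASP+CGP against ASP ended without ASP replicate 2.

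**Figure D4:**
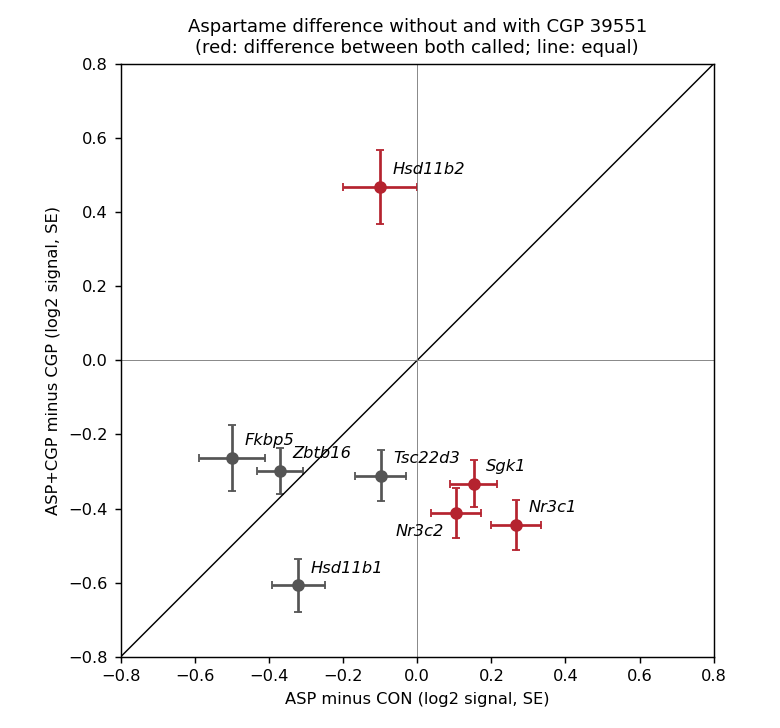
Difference in log2 signal between pools with and without aspartame for the 8 genes, with SE. The horizontal axis is without CGP 39551 (ASP minus CON) and the vertical axis with it (ASP+CGP minus CGP). The diagonal marks equal differences. Nr3c1, Nr3c2 and Sgk1 lie below the diagonal and Hsd11b2 above it, the 4 called interactions.

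Of 28 other genes known to be induced by glucocorticoids, 26 were tested. Compared with CON, 2 rose and 6 fell in ASP (2 and 5 under cyclic loess). The rises were Fam107a, which is also abundant in brain (4.49-fold, limma, adjusted p = 4.439e-12), and Glul, glutamine synthetase (1.46-fold). Tat and G6pc, enzymes of liver amino acid and glucose metabolism, fell to a fold of 0.447 and 0.464, and the transcription factor gene Cebpb to 0.628. In CGP 2 rose and 1 fell: G6pc (1.99-fold), Igfbp1 (1.55-fold) and Lcn2 (0.684-fold). In ASP+CGP 0 rose and 7 fell, led by G6pc (0.297), Tat (0.313), Lcn2 (0.539) and Bcl6 (0.635), and 3 of the 7 calls stayed under cyclic loess, which ended that of Bcl6 (0.785). The medians of the 26 were -0.19, 0.10 and -0.34, against -0.0986, 2.33e-05 and -0.166 for all tested genes. Fam107a was called higher in ASP, as were the brain cell markers. G6pc was called in the direction of the hepatocyte markers in ASP, CGP and ASP+CGP, Tat in ASP and ASP+CGP but not in CGP, and Igfbp1 in CGP. The part of these cells was not tested.

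**Figure D5:**
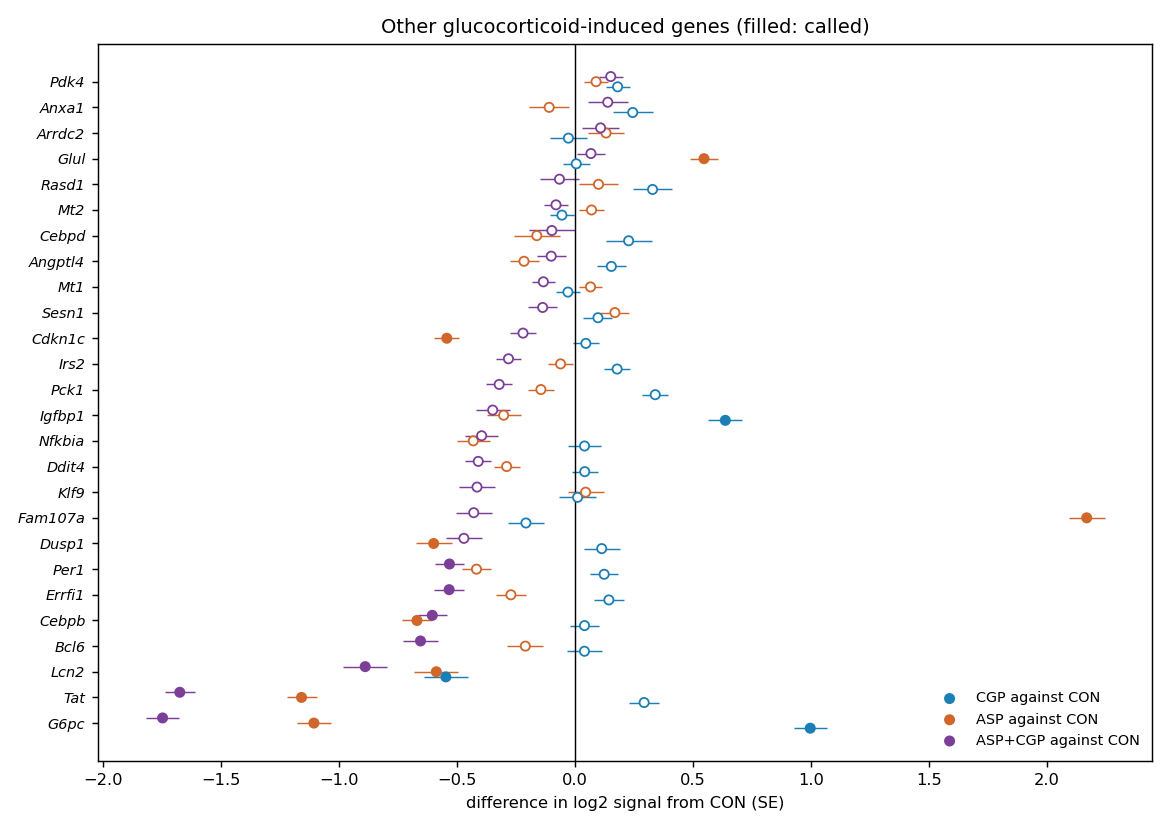
Difference in log2 signal from CON (horizontal axis, SE) of the 26 other glucocorticoid-induced genes in the 3 treated pools; filled points passed both thresholds. Fam107a in ASP and G6pc and Tat in ASP+CGP are the points farthest from 0 on each side.

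Of 13 tested genes of the receptor's chaperone complex, 0 were called by limma in ASP or CGP against CON and 1 in ASP+CGP, Ptges3 (p23), which fell to a fold of 0.637 (0.777 and no call under cyclic loess). Stip1 (Hop) and Ptges3 fell in ASP+CGP compared with ASP, to 0.685 and 0.697, calls that cyclic loess ended as well (0.747 and 0.763). Of 12 coregulators tested, Ppargc1a rose 2.68-fold in ASP and Nr0b1 (DAX-1) fell to 0.647. Ppargc1a (0.282), the coactivator gene Ncoa1 (0.658) and the Mediator subunit gene Med14 (0.670) fell in ASP+CGP compared with ASP. Of these, Ppargc1a kept its call under cyclic loess. The ASP pool held higher brain cell markers than the other pools, and its adrenal cortex markers were the lowest. The part of these cells in the values of both lists was not tested.

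Of 10 genes of corticosteroid metabolism and transport, 5 fell in ASP: Cyp11b2, aldosterone synthase (0.629), Abcb1b, an efflux pump (0.677), Serpina6, the plasma carrier of corticosterone made in liver (0.680), H6pd, which supplies the cofactor of the Hsd11b1 enzyme (0.682), and Sult2a8, whose means lay under the floor of 6 in both pools. Under cyclic loess 2 fell, and Abcb1b (0.727), Serpina6 (0.755) and H6pd (0.761) were not called. In CGP 3 rose, Serpina6 by 1.56-fold and, from means under the floor in CON, Sult2a8 by at least 1.63-fold and Akr1d1 by at least 1.46-fold. In ASP+CGP 3 fell, Serpina6 to 0.604, Abcb1b to 0.671 (0.754 and no call under cyclic loess) and Sult2a8, under the floor in both. Of all tested genes, 8.13% were called lower in ASP, 1.62% higher in CGP and 8.32% lower in ASP+CGP. Hepatocyte markers were called higher in CGP and lower in ASP and ASP+CGP, and adrenal cortex markers were lowest in ASP. The part of these cells in the values of this list was not tested.

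Of 7 mineralocorticoid-responsive transport genes, Atp1b1 and Nedd4l, the latter a target of SGK1, rose 3.13-fold and 2.40-fold in ASP, the pool with higher brain markers. In ASP+CGP, Nedd4l and Usp2 fell to 0.693 and 0.678 of CON, and Scnn1g, under the floor of 6 in CON, was at least 1.20-fold higher, and cyclic loess ended these 3 calls. Of 14 ligands and receptors of the stress axis, 5 rose and 2 fell in ASP (6 and 0 under cyclic loess), with Avp (2.65-fold), Mrap2 (1.84-fold), Crhr1 (1.83-fold) and Pomc (1.60-fold) the farthest from CON. The part of the cells behind the higher brain markers of ASP in these values was not tested. In ASP+CGP 3 rose, Crhr2 (1.53-fold), Crhr1 (1.49-fold) and Ucn3 (at least 1.17-fold, no call under cyclic loess), and their CON signals lay at low levels, where the median difference of all genes was above 0. The shares of all tested genes called higher and lower were 9.81% and 8.13% in ASP, and 6.09% and 8.32% in ASP+CGP.

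The genes whose profile over the 12 arrays lay nearest to each member, each centred on its CON mean, were found among 14696 candidates. Nearest to Nr3c1 was Cdc42ep3, with a root mean square difference of 0.063 log2 units, then Aqp11 and Prkag2. Nearest to Nr3c2 were Prmt5 (0.072), Mrpl41 and Rps7. For the enzymes they were Ctsl (0.055), Pcna and Lyst for Hsd11b1 and Trpv5 (0.062), Pkp3 and Muc4 for Hsd11b2. For the induced genes they were Prob1 (0.064), Mdn1 and Igf1r for Fkbp5, Tti1 (0.032), Rbm27 and Elmod3 for Tsc22d3, Bcap29 (0.045), Zfp438 and Crip2 for Sgk1, and Med25 (0.028), Farsa and Gramd1b for Zbtb16. No member was among the 3 nearest of another.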

How the data were processed

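Adrenal RNA was pooled by group and each of 4 pools was hybridised to 3 arrays. The authors deposited log2 signals for 26533 probe sets, made with RMA (background correction, quantile normalisation and summary of probes) in Partek, per the labels. Of these, 17710 had 1 gene symbol in the platform table, 1077 several and 7746 none. For each of 16244 genes the probe set with the highest mean was used. The 344 genes that reached a mean of 6 in none of the pools were dropped. The remaining 15900 were fitted with limma 3.58.1 in R 4.3.3 (lmFit and eBayes, a mean for each group over all 12 arrays), and 6 two-sided contrasts were tested. A gene was called at a Benjamini-Hochberg adjusted p under 0.05 over all tested genes and at least 1.4-fold, the thresholds of the study's methods. The number of arrays limits the precision. The fit was tested on simulated data. Named genes were all members, up to 4 genes of each list farthest from 0 in a contrast, and the 3 nearest profiles of each member (Glul and H6pd, outside these rules, were named after their values were seen). The members, lists and tests were chosen with earlier results of these data known. Alternatives covered the dim filter, scaling, moderation, array weights, fold minimum, adjustment, choice of probe set, a replicate block and leaving out each array. Promoter windows came from RefSeq, build GRCm38.p6.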

Additional observations from a re-analysis of the deposited data

Results flagged for a closer look

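The aspartame difference without CGP 39551 and with it was called unequal for 4 of the 8 genes, 3 lower and 1 higher. This was by the test of the difference itself (limma, over 3 arrays of each of 4 pools), against 15.5% and 9.02% of all tested genes. The interaction was -0.71 for Nr3c1, -0.52 for Nr3c2 and -0.49 for Sgk1, and 0.57 for Hsd11b2. Cyclic loess ended the calls of Sgk1 and Hsd11b2, and under it the aspartame difference of Sgk1 with the antagonist was -0.0054, against -0.33 as deposited. Under cyclic loess the interactions of Sgk1 and Hsd11b2 were -0.33 and 0.38, and that of Fkbp5, also not called, was 0.40. Calls were 2, Nr3c1 and Nr3c2, with cyclic loess or removal of the trend with signal level, and 2, Nr3c1 and Hsd11b2, with median centring. They were 2, Nr3c1 and Nr3c2, without CON replicate 1 and 1, Nr3c1, without ASP replicate 2. Each rests on 1 pool a group, and the ASP pool held higher brain cell markers than the other pools, whose part in these values was not tested.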

How the results depend on the processing

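Under the other settings 1259 of the members' values stayed on the same side of the thresholds, 33 lost their call, 36 gained one, and no called value changed sign. The fits without the ASP arrays, or without the ASP+CGP arrays, were chosen after seeing the data and changed no count. Members called in ASP against CON went from 1 to 0 with arrays centred on their medians, cyclic loess, removal of the trend with signal level or a 1.8-fold minimum, and to 4 with no fold minimum. For ASP+CGP against CON they went from 0 to 2 with array weights and 8 with no fold minimum. Against ASP they went from 1 to 5 with no fold minimum and 0 at 1.8-fold, and with median centring the 1 call was Hsd11b2 in place of Nr3c1. Against CGP they went from 1 to 2 with median centring or array weights, 0 with cyclic loess, trend removal or 1.8-fold, and 8 with no fold minimum. Interaction calls went from 4 to 2 with cyclic loess or trend removal (Nr3c1 and Nr3c2), to 2 with median centring (Nr3c1 and Hsd11b2) and to 0 at 1.8-fold. The cause was not tested. Leaving out 1 array gave 0 to 1 calls in ASP against CON, 0 in CGP against CON, 0 to 2 in ASP+CGP against CON, 0 to 2 against ASP, 1 to 2 against CGP and 1 to 4 in the interaction. Fkbp5 lost its ASP call without CON replicate 3 or ASP replicate 1 and gained one in ASP+CGP without CON replicate 1 or, with Zbtb16, ASP+CGP replicate 2. Nr3c1 lost its call against ASP without ASP replicate 2. Hsd11b2 gained one against ASP without ASP replicate 1, ASP replicate 3 or ASP+CGP replicate 2, and against CGP without CGP replicate 3 or ASP+CGP replicate 2. Interaction calls were 2 without CON replicate 1 and 1 without ASP replicate 2.

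Same-numbered arrays of different pools correlated between -0.15 and 0.379 in their deviations (18 pairs, 8 over 0.1), and 11 of 12 arrays were closer to their own number. The main fit did not take the numbers as pairs, and what same-numbered arrays share was not tested. With the replicate block the counts were 1, 0, 0, 1, 1 and 4 in the order of contrasts above, and no member's call changed.

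Over all genes, cyclic loess left 679 higher and 500 lower calls in ASP+CGP against CON (969 and 1323 as deposited) and 817 and 820 against CGP (1363 and 1743). The share of higher calls was 70.1% with median centring in ASP+CGP against CON, 43.3% against ASP (32.9% as deposited, 19.2% with cyclic loess) and 67.2% against CGP (43.9%), and in the interaction 47.2% (36.7% as deposited, 23.1% with cyclic loess).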
